A study of Sus scrofa with 13 samples.

Results

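Nocturnin (NOCT) and 9 genes of the circadian clock or of its direct output, PER1, PER2, CRY1, CRY2, CLOCK, NR1D1, NR1D2, DBP and BHLHE40, were followed in pig liver before and after warm ischemia and reperfusion. They were chosen by symbol, as the rows of the count table that carry these names. All 10 were present among the 35670 genes of the table, and all 10 passed the filter on low counts, as did 16481 genes in all. The set was put together with results of these data known, and which comparison led to it is not given in the sources used here. The comparisons with baseline were taken as the ones that led to it. Values of the 10 genes in comparisons with baseline are therefore given as a description, with fold change, standard error (SE) and 95% interval and without a test, and tests are given for the comparisons of cell infusion with ischemic controls. Those tests use the same ischemic controls as the comparison of controls with baseline. They are therefore not independent of a choice of genes made there. A gene chosen because its controls were high would tend to be lower in infused livers than in these controls.

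Bulk RNA sequencing covered 13 liver libraries of female Yorkshire pigs in 4 groups. Baseline (n = 2, replicates 1a and 2) is liver sampled under anesthesia after laparotomy and before any clamping. Ischemic controls (n = 3) had all hepatic inflow and outflow clamped for 45 min and were sampled after 6 h of reperfusion without cells. The arterial (n = 4) and portal (n = 4) infusion groups had the same clamping and reperfusion and were given 3000000 human bone marrow-derived mesenchymal stromal cells (BM-MSCs) per kg body weight after unclamping, by way of the hepatic artery in the one group and of the portal vein in the other. All animals shared sedation with ketamine and midazolam, mechanical ventilation, and a fast with glucose-enriched water before surgery. The sources used here give no clock time for any biopsy. The baseline biopsies preceded those at 6 h by the whole operation, so that ischemia and reperfusion, elapsed time under anesthesia and clock time cannot be told apart in any comparison with baseline. The study's methods describe liver biopsies before clamping and again at 6 h, and all its pigs belong to the control, arterial or portal group. The baseline livers are thus those of animals assigned to these groups. The sources do not say which animals they were, or whether later biopsies of the same animals are among the libraries at 6 h. The main fit treats all libraries as independent.

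The circadian clock of a cell is a loop of transcription factors. CLOCK (or its relative NPAS2) pairs with BMAL1 and switches on the genes of the PER and CRY proteins, which return to the nucleus and block that pair. A side loop runs through REV-ERBα (NR1D1) and REV-ERBβ (NR1D2), which repress BMAL1 against activators such as RORA. The same pair drives output factors such as DBP, and BHLHE40 competes with it for its sites. Many of these genes, though not all to the same degree, have strong rhythms in liver, and the level of a rhythmic gene in a biopsy depends on the hour it is taken. Nocturnin is a rhythmic output of the liver clock. It was originally described as a relative of the deadenylases that shorten mRNA tails, and its enzyme activity is the removal of a phosphate from NADP and NADPH. PER1 is also an immediate early gene that glucocorticoids and cAMP signals induce directly.

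Total counts on genes were between 18975413 and 35949178 per library, with a median of 30260803. All 9 hepatocyte markers examined carried reads in each of the 13 libraries, with a summed level of 39766 to 138840 CPM, which are counts scaled to a fixed library total. The intervals given with fold changes come from edgeR's fit and cover the spread between livers of a group. Livers of a group varied widely, the biological coefficient of variation common to all genes being 0.729. At this spread the comparisons below have low precision, and the width of each interval gives it.

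Of the 11 libraries at 6 h, 4 stood apart from the rest on the first principal component of the 500 most variable genes, which held 64.0% of the variance. They were control 2, arterial 1, portal 1 and portal 4, with scores of 24.6 to 51.1, where the other 9 libraries scored -27.2 to -2.92. In these 4 libraries 13581 to 16993 genes had at least 1 read, against 15831 to 20282 in the other 7 at 6 h. Their summed level of neutrophil markers was 82.1 to 344 CPM, against 17.5 to 177 CPM in the other 7. Summed hepatocyte markers were lower in the 4, at 39766 to 69543 CPM against 81041 to 121575 CPM, and so were stellate cell markers, at 136 to 249 CPM against 301 to 1403 CPM, with no overlap in either case. Both infusion groups and the controls hold at least 1 of them, and baseline holds none. Several clock genes moved with this division, and so with the level of hepatocyte markers. CLOCK was at 40.3 to 92.8 normalized counts in the 4 libraries and at 169 to 483 in the other 7. DBP was at 57.8 to 196 against 8.03 to 86.0, and PER1 at 4273 to 10930 against 1884 to 5029. NOCT did not separate along it, with 1018 to 2194 in the 4 libraries, inside the range of 419 to 3029 of the other 7. Normalized counts here and below are read counts divided by the library's size factor, and they can be compared between libraries for 1 gene but not between genes of different length. The part of this division in the results that follow was not tested beyond leaving the 4 libraries out.

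**Figure D1:**
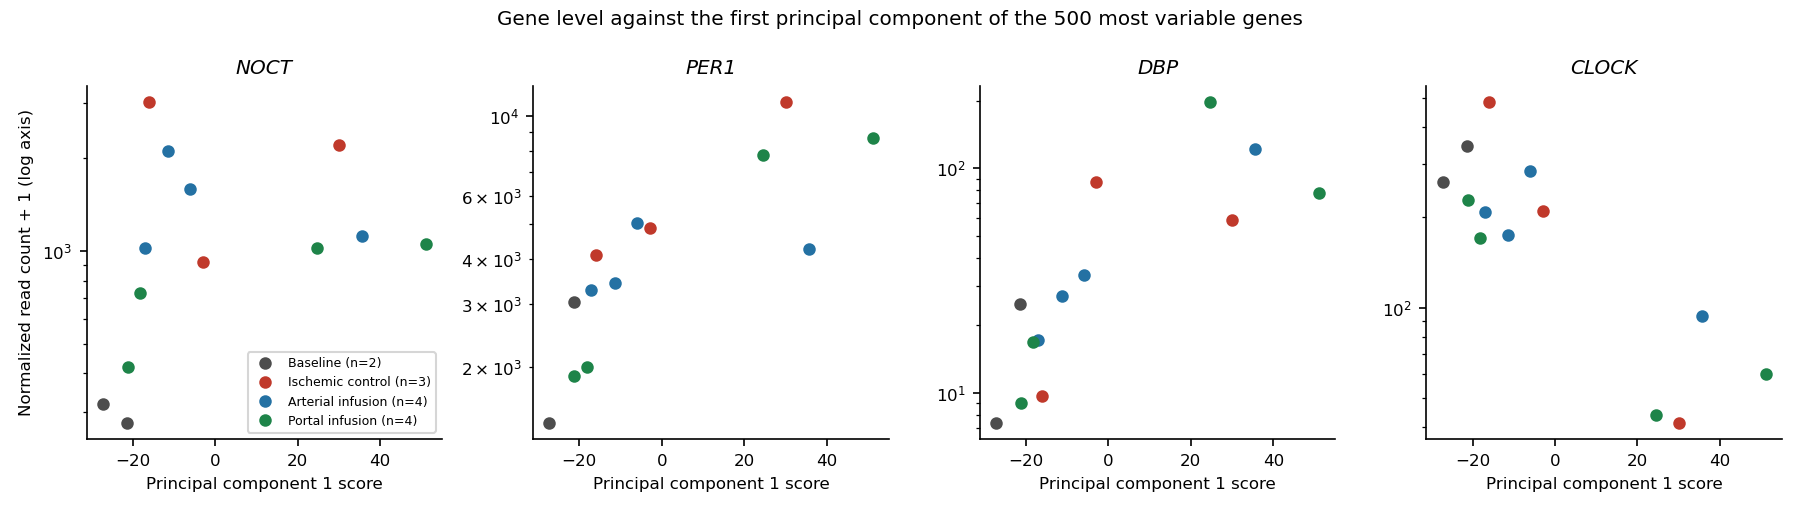
Normalized read count + 1 (log axis) of NOCT, PER1, DBP and CLOCK against the score of each of the 13 libraries on the first principal component, colored by group. The 4 libraries with scores of 24.6 to 51.1 hold the lowest CLOCK values (40.3 to 92.8), while their NOCT values (1018 to 2194) lie within the range of the other libraries at 6 h.

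NOCT (Sscrofa11.1 chromosome 8, 87885411 to 87909231) was low at baseline and higher in each of the 11 livers at 6 h. Its normalized count was 275 and 319 in the baseline livers 1a and 2. It was 3029, 2194 and 916 in ischemic controls 1, 2 and 3. It was 1113, 2105, 1017 and 1583 in the arterial livers 1 to 4, and 1048, 729, 419 and 1018 in the portal livers 1 to 4. The lowest liver at 6 h, portal 3, lay above both baseline livers, and control 1 was the highest library of the series. Because the tissue was sequenced in bulk, a change in the share of a cell type and a change in RNA per cell cannot be told apart for this or any other gene below.

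The NOCT mean was 297 ± 30.6 (SD, n = 2) in baseline livers. That of the ischemic controls was 2046 ± 1064 (SD, n = 3), and the fold fitted by edgeR was 6.92. On the log2 scale this was 2.79 with a SE of 0.58 and a 95% interval of 1.54 to 4.04. Over all 11 livers at 6 h, with equal weight on the 3 groups, the log2 fold change against baseline was 2.15 (SE 0.52, interval 1.04 to 3.26). Without the 4 libraries that stand apart, the values against baseline were 2.76 for controls and 2.05 for the remaining livers at 6 h. Leaving out any single library gave 2.34 to 3.16 for controls against baseline. Summed neutrophil markers were 24.9 to 26.5 CPM at baseline and 41.7 to 344 CPM in controls, with 3 or 4 of the 4 matched markers carrying reads in each library (MPO at 0 in 9 of the 13 libraries), and their part in the NOCT difference was not tested. Neutrophil markers were at 17.5 to 28.4 CPM in arterial 2, arterial 3 and portal 3, where NOCT stood at 2105, 1017 and 419.

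**Figure D2:**
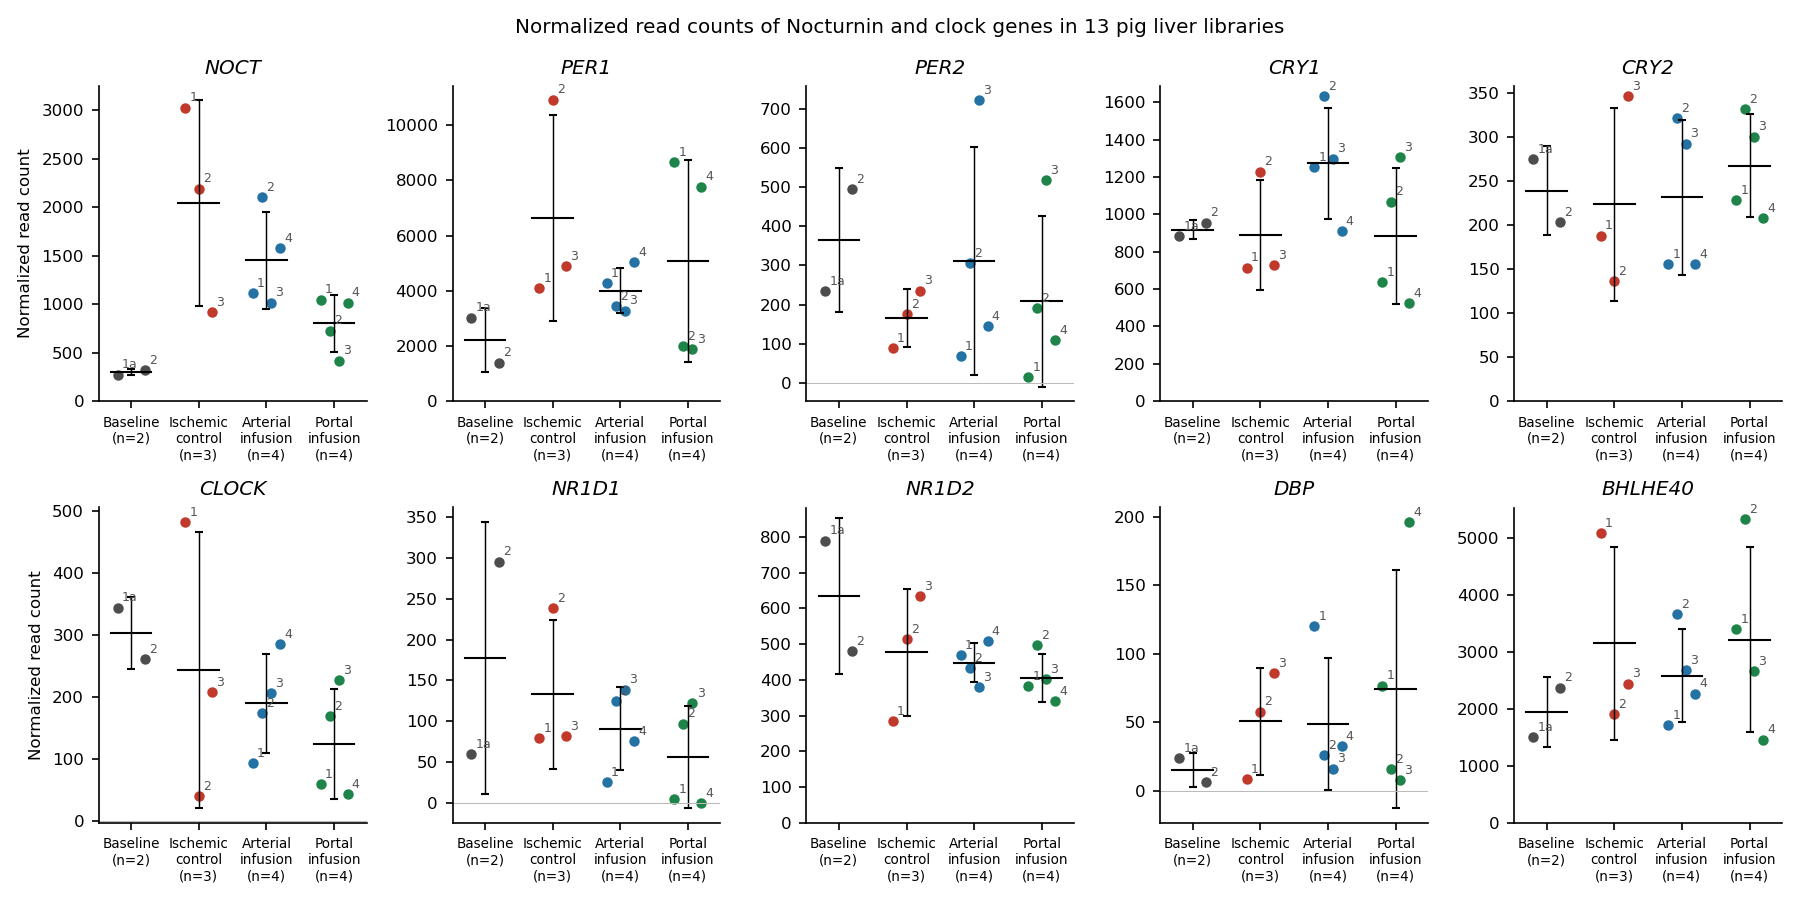
Normalized read count (linear axis) of the 10 genes in each library, numbered by replicate, with the mean (line) and SD (bar) of each group of 2, 3, 4 and 4 livers. NOCT was at 275 and 319 at baseline and at 419 or more in each of the 11 livers at 6 h, and for NR1D1 and NR1D2 no liver at 6 h lies above both baseline livers.

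Beside NOCT, only PER1 had all 3 control livers above both baseline livers, so that 2 of the 10 genes had control libraries that did not overlap with baseline on the higher side, and 0 of the 10 on the lower side. Over all genes tested, 14.8% did not overlap on the higher side and 16.3% on the lower side. Since this contrast may have helped to choose the genes, nothing is read from the count. Over the 11 livers at 6 h, NOCT was the 1 gene of the 10 above both baseline livers in each liver, and 3.3% of all genes tested were. In edgeR's fit over 16481 genes (quasi-likelihood test, p-values adjusted by Benjamini-Hochberg), 0 genes passed the threshold of 0.05 between controls and baseline (0.0%) and 0 between all livers at 6 h and baseline (0.0%), while 720 and 787 had an unadjusted p under 0.05. DESeq2 called 166 genes (1.02%) when fitted to these groups alone and 5 (0.0204%) when fitted to all libraries.

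The period genes PER1 and PER2, whose proteins carry the negative limb of the clock, stood in opposite directions against baseline in the main fit. An alternative fit added 1 surrogate variable, a covariate estimated from the data. There both were above 0 in controls against baseline, PER1 at 0.80 (interval -0.13 to 1.72) and PER2 at 0.47 (interval -1.40 to 2.35). PER1, on chromosome 12 from 53361863 to 53376723, was at 3028 and 1396 in the baseline livers and at 4098, 10930 and 4890 in the controls. It was at 4273, 3433, 3286 and 5029 after arterial infusion and at 8677, 2002, 1884 and 7778 after portal infusion. Thus 9 of 11 livers at 6 h lay above both baseline livers, and portal 2 and portal 3 lay between them. Controls differed from baseline on the log2 scale by 1.55 (SE 0.68, interval 0.09 to 3.01). The highest values were those of control 2, portal 1 and portal 4, which are among the 4 libraries that stand apart, and without these 4 the log2 fold change was 1.03 (interval 0.17 to 1.90).

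PER2, on chromosome 15 from 137793419 to 137837854, was at 234 and 496 in the baseline livers and at 88.6, 175 and 236 in controls 1 to 3. It was at 68.7, 306, 723 and 145 after arterial infusion and at 15.1, 191, 518 and 108 after portal infusion. In 7 of 11 livers at 6 h it lay below both baseline livers, and in arterial 3 and portal 3 above both. Controls differed from baseline on the log2 scale by -1.14 with a SE of 1.08 and an interval of -3.43 to 1.16, so a difference in either direction was compatible with the spread. The lowest 4 values of PER2 in the series, from 15.1 to 108, came from portal 1, arterial 1, control 1 and portal 4.

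The cryptochromes CRY1 and CRY2, partners of the PER proteins in repression, showed the smallest differences of the 10 genes between controls and baseline. CRY1, on chromosome 5 from 13275265 to 13429566, was at 882 and 956 in the baseline livers and at 714, 1229 and 727 in controls 1 to 3. After arterial infusion it was at 1254, 1631, 1299 and 908, and after portal infusion at 637, 1069, 1306 and 526. CRY2, on chromosome 2 from 16587101 to 16620380, was at 275 and 204 in the baseline livers and at 188, 137 and 347 in controls 1 to 3. It was at 156, 322, 293 and 156 after arterial infusion and at 229, 333, 301 and 209 after portal infusion. For both genes the livers at 6 h lay on either side of the baseline livers. Controls differed from baseline on the log2 scale by -0.06 (SE 0.47, interval -1.06 to 0.94) for CRY1 and -0.09 (SE 0.55, interval -1.28 to 1.09) for CRY2, and both intervals leave room for a change of about 1 on the log2 scale. The annotated span of CRY1 overlaps those of MTERF2 and TMEM263 and of pseudogenes, and reads of overlapping genes cannot be told apart in non-directional libraries.

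CLOCK, of the activating limb of the loop, was lower than at baseline in most livers. On chromosome 8 from 54793323 to 54910192, where its span overlaps TMEM165, it was at 344 and 262 in the baseline livers and at 483, 40.3 and 208 in controls 1 to 3. It was at 92.8, 174, 207 and 285 after arterial infusion and at 59.2, 169, 227 and 42.9 after portal infusion. It lay below both baseline livers in 9 of 11 livers at 6 h and above both in control 1. The log2 fold change was -0.28 (SE 0.89, interval -2.19 to 1.63) in controls, or 0.22 without control 2, and -0.75 (SE 0.72, interval -2.28 to 0.78) over all livers at 6 h. Without the 4 libraries that stand apart it was 0.21 in controls and -0.28 over the remaining livers at 6 h. The partner BMAL1 was at 487 and 626 in the baseline livers and at 581, 142 and 347 in controls 1 to 3. It lay below both baseline livers in 9 of 11 livers at 6 h, lowest in arterial 1 at 50.0. NPAS2, which can take the place of CLOCK, was at 98.7 and 203 at baseline and at 150 to 179 in the controls, inside the baseline range.

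The nuclear receptors NR1D1 and NR1D2, the repressors of the side loop, were not above both baseline livers in any liver at 6 h. NR1D2, on chromosome 13 from 10756954 to 10791219, was at 790 and 481 in the baseline livers and at 284, 515 and 634 in controls 1 to 3. It was at 468, 434, 380 and 509 after arterial infusion and at 383, 497, 401 and 340 after portal infusion. It was below both baseline livers in 7 of 11 livers at 6 h, with a log2 fold change over all of them of -0.55 (SE 0.35, interval -1.29 to 0.20). Its spread within the infusion groups was narrow, with SDs of 54.6 around a mean of 448 after arterial and 66.3 around 405 after portal infusion.

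NR1D1, on chromosome 12 from 22263549 to 22274131, was at 60.2 and 295 in the baseline livers and at 79.1, 238 and 81.7 in controls 1 to 3. It was at 25.9, 124, 139 and 75.4 after arterial infusion and at 5.03, 97.1, 122 and 0 after portal infusion. The baseline livers alone spanned most of the range of the series, and the log2 fold change of controls against baseline was -0.44 (SE 1.38, interval -3.39 to 2.51). It rested on baseline 2, without which it was 1.06 in controls and 0.50 over all livers at 6 h, in both cases with the opposite sign of the value over all libraries. The 0 of portal 4 allows up to 3 reads. In that library 4.39% of the 1025 genes with a similar mean level in the controls were also at 0, as were 13.2% in portal 1 and 2.44% in arterial 1, against 0.293% or less in the other livers at 6 h. The span of NR1D1 overlaps that of THRA, the thyroid hormone receptor gene, so that part of its reads may belong to THRA. THRA itself was at 501 to 807 in all 13 libraries.

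DBP, an output factor that the CLOCK and BMAL1 pair drives directly, had few reads, 6 to 160 per library. It lies on chromosome 6 from 53986955 to 53993044. Its normalized count was 23.9 and 6.33 in the baseline livers and 8.70, 57.8 and 86.0 in controls 1 to 3. It was 120.5, 26.0, 16.2 and 32.5 after arterial infusion and 76.8, 15.9, 8.03 and 196 after portal infusion. It lay above both baseline livers in 7 of 11 livers at 6 h and below both in none. The log2 fold change of controls against baseline was 1.70 (SE 1.39, interval -1.28 to 4.67), and over all livers at 6 h it was 1.84 (interval -0.89 to 4.56). The 4 libraries that stand apart held 4 of the 5 highest DBP values. Without them the log2 fold change over the livers at 6 h was 0.66 (interval -1.26 to 2.57). With 1 surrogate variable and all libraries it was 0.33 in controls and 0.17 over all livers at 6 h. The related factor TEF was at 332 and 142 in the baseline livers and at 164, 706 and 450 in controls 1 to 3, highest in portal 4 at 1066, and HLF was at 660 and 560 at baseline and at 340 to 572 in the controls.

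BHLHE40, a repressor that shares binding sites with CLOCK and BMAL1, lies on chromosome 13 from 61526121 to 61533686, in a span shared with a long non-coding RNA. It was at 1503 and 2371 in the baseline livers and at 5088, 1912 and 2443 in controls 1 to 3. It was at 1718, 3657, 2683 and 2266 after arterial infusion and at 3399, 5335, 2664 and 1457 after portal infusion. In 7 of 11 livers at 6 h it lay above both baseline livers. The log2 fold change of controls against baseline was 0.72 (SE 0.59, interval -0.54 to 1.99). Its relative BHLHE41 was at 20.1 and 33.8 in the baseline livers and at 26.1, 5.25 and 15.9 in controls 1 to 3.

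The comparison of infused with uninfused livers was made at 6 h, when all livers had the same clamping and the same interval since clamping. The study describes no infusion without cells in the controls, so that BM-MSCs and the infusion procedure cannot be told apart. The clock times of these livers are not given either, and whether they differed between the groups is not known. NOCT was lower on average after infusion than in the ischemic controls, and the portal livers were lower than the arterial ones. From the values given above, the mean was 2046 ± 1064 (SD, n = 3) in controls, 1454 ± 499 (SD, n = 4) after arterial infusion and 804 ± 294 (SD, n = 4) after portal infusion, and the order of means was baseline, portal, arterial, control. Neighbors in this order overlapped in their libraries, except baseline and portal. Of the 8 infused livers, 2 lay below the lowest control, portal 2 and portal 3, and none above the highest.

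For all infused livers against controls, the log2 fold change of NOCT was -0.96 (SE 0.37, interval -1.75 to -0.18), with an unadjusted p = 0.0196 and a p adjusted over the 16481 genes of 1.00 in edgeR. The exact two-sided permutation test, run for the 10 genes in 4 comparisons, gave p = 0.176, where the smallest p that 8 against 3 livers allow is 0.00606. For portal infusion against controls the log2 fold change was -1.41 (SE 0.43, interval -2.33 to -0.49), the unadjusted p = 0.00534, the adjusted p = 1.00 in edgeR and the exact permutation p = 0.114, with a smallest possible p of 0.0286. For arterial infusion against controls it was -0.52 (SE 0.43, interval -1.44 to 0.40), with an unadjusted p = 0.249, an adjusted p = 1.00 in edgeR and an exact permutation p = 0.514. The test of the difference between the routes, arterial minus portal, gave 0.89 (SE 0.40, interval 0.03 to 1.76), with an unadjusted p = 0.0435, an adjusted p = 1.00 in edgeR and an exact permutation p = 0.0857. None of these differences passed the threshold over all genes. The tests against controls reuse the controls of the comparison taken to have led to the choice of genes. The controls themselves ranged from 916 to 3029, and a single control decided much of the size. Without control 1 the log2 fold change of NOCT was -0.51 for all infused livers, -0.96 for portal and -0.06 for arterial infusion, and without control 3 it was -1.33, -1.79 and -0.87. Without the 4 libraries that stand apart it was -1.07 for all infused livers (adjusted p = 0.481 in edgeR), -1.78 for portal (adjusted p = 0.427) and -0.35 for arterial infusion, and 1.43 between the routes. The portal value then compares portal 2 and 3 (729 and 419) with controls 1 and 3. Portal 1 and 4, which were left out, held the higher portal values of NOCT (1048 and 1018). Nothing is therefore read from the larger portal and route values.

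**Figure D3:**
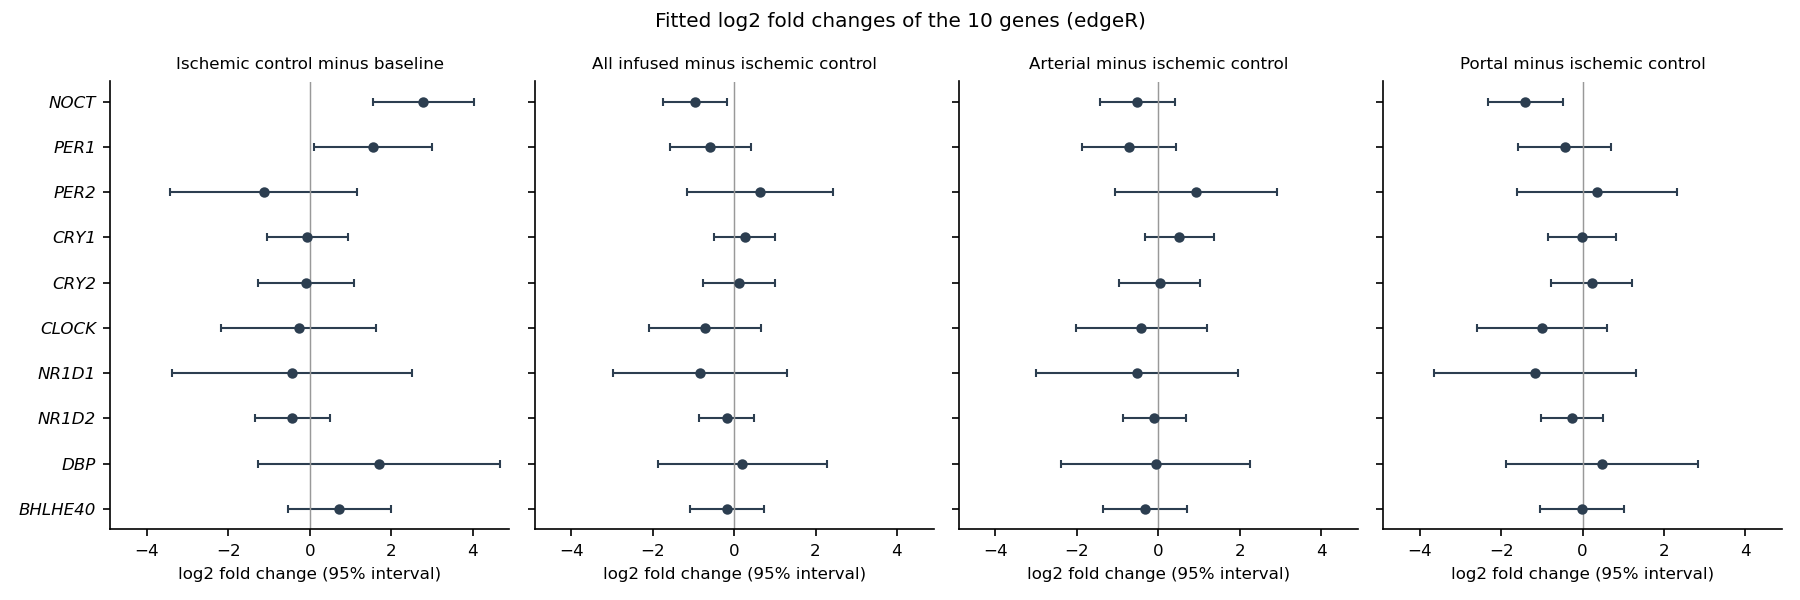
Fitted log2 fold change (point) with its 95% interval (bar) of the 10 genes in 4 comparisons, from edgeR. For controls minus baseline the NOCT interval is 1.54 to 4.04, given as a description since this contrast was taken to have led to the choice of genes. The NOCT interval lies below 0 for all infused (-1.75 to -0.18) and for portal livers minus controls (-2.33 to -0.49). These comparisons share their controls with that contrast and are not independent of it. The intervals of the other 9 genes in the 3 infusion comparisons cross 0, and no gene of the 10 passed the adjusted threshold there.

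In edgeR's test 0 of the 10 genes passed the adjusted threshold in any of the 4 comparisons among livers at 6 h, and neither did any of the 16481 genes tested (0.0% in each). At an unadjusted p under 0.05 there was 1 gene of the 10, NOCT, in the comparisons of all infused livers, of portal livers and between the routes, and 0 in the arterial comparison, where 353, 460, 396 and 258 of all genes tested had such a p. DESeq2 likewise called 0 of the 10. Fitted to all libraries, it called 0.00408% of the genes it tested for all infused livers, 0.0% for arterial, 0.0163% for portal infusion and 0.00408% between the routes, and fitted to the groups compared 0.0%, 0.0%, 0.0131% and 0.0%. For 0 of the 10 genes did the infused livers lie wholly above or below the controls, or the livers of one route wholly above those of the other. Over all genes this held for 0.564% with the 8 infused livers, 3.19% with the arterial and 3.72% with the portal livers, and for 1.41% between the routes.

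The other 9 genes had smaller or less precise differences after infusion. For all infused livers against controls, 4 of the 10 genes were higher and 6 lower, with a median log2 fold change of -0.17, beside -0.02 over all genes tested. PER1 was at -0.58 (SE 0.47, interval -1.58 to 0.42), and 4 of 8 infused livers lay below the lowest control. PER2 was at 0.64 (SE 0.84, interval -1.15 to 2.43) and CLOCK at -0.71 (SE 0.65, interval -2.09 to 0.67). CRY1 was at 0.26 (SE 0.35), CRY2 at 0.13 (SE 0.41), NR1D2 at -0.18 (SE 0.32) and BHLHE40 at -0.17 (SE 0.43). The intervals of CRY1, CRY2, NR1D2 and BHLHE40 reached no further than -1.08 and 1.02. NR1D1 and DBP had SEs of about 1 and intervals of -2.97 to 1.29 and of -1.88 to 2.29, too wide to set a direction. Exact permutation p-values of these 9 genes lay between 0.273 and 0.970 for all infused livers.

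By route, the lowest fitted values after NOCT were those of NR1D1 (-1.17, SE 1.16) and CLOCK (0.499 of the control level) in portal livers against controls, and portal 1 and portal 4 held the lowest portal values of either gene. Without the 4 libraries that stand apart, NR1D1 was at 0.46 and CLOCK at -0.80. In arterial livers the highest fitted values were those of PER2 (0.92, SE 0.93) and CRY1 (0.52, SE 0.40). The PER2 value rested on arterial 3, without which it was 0.035. For CRY1, 3 of the 4 arterial livers had more CRY1 than any control. Between the routes, CRY1 differed by 0.52 (SE 0.36, interval -0.25 to 1.30) and PER1 by -0.28 (SE 0.50, interval -1.35 to 0.79), and neither passed the threshold.

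With the 4 libraries left out, some of these values were larger. PER1 in portal livers against controls was then at -1.20 (unadjusted p = 0.0112, adjusted p = 0.446 in edgeR), and CRY1 in all infused livers at 0.78 (unadjusted p = 0.0202, adjusted p = 0.468 in edgeR). The PER1 value compares portal 2 and 3 with controls 1 and 3. The libraries left out were picked by the first principal component, with which PER1 itself correlated (Spearman's rho 0.863), and they hold its highest values. Nothing is therefore read from these p-values. PER2 was at 1.21 and DBP at -1.44 in all infused livers, the sign of DBP being the opposite of that over all libraries.

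Beyond the 10 genes, 17 further genes of the core clock were matched and tested, among them BMAL1, NPAS2, RORA, the kinases CSNK1D and CSNK1E and the ubiquitin ligase adapters BTRC and FBXW11. Of the 17, 7 were higher and 10 lower in controls than at baseline, with a median log2 fold change of -0.06, beside -0.08 for the 10 genes and 0.005 over all genes tested. None of them passed the adjusted threshold in any comparison. In this contrast the values furthest from 0 were those of BMAL2 (1.12, SE 2.34), CSNK1D (1.11, SE 0.78), NFIL3 (0.92, SE 0.67) and TEF (0.85, SE 0.91) on the higher side and of BHLHE41 (-0.72, SE 0.96), TIMELESS (-0.63, SE 1.67) and BMAL1 (-0.61, SE 0.74) on the lower side. CSNK1D, whose product phosphorylates PER proteins and marks them for decay, was at 5334 to 12792 in the 4 libraries that stand apart and at 1622 to 3071 in the other 7 at 6 h. NFIL3, a repressor that opposes DBP, was at 872 to 1811 against 2186 to 5162. RORA, an activator of BMAL1, was above both baseline livers in 9 of 11 livers at 6 h. After infusion 9 of the 17 were higher and 8 lower than in controls, with a median of 0.01. BHLHE41 stood furthest from 0 at 1.25 (SE 0.77, unadjusted p = 0.124, adjusted p = 1.00 in edgeR), and 7 of 8 infused livers lay above all controls. It had few reads, 33, 3 and 22 in controls 1 to 3 and 19 to 82 in infused livers. Control 2, the lowest, is among the 4 libraries that stand apart.

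Clock-controlled output genes of the liver were mixed. Of 8 listed, 7 were tested, since ELOVL3 was at 0 in all livers at 6 h, and 4 were higher and 3 lower in controls than at baseline, with a median log2 fold change of 0.16. USP2, a ubiquitin protease with a strong rhythm in liver, had a mean of 31.2 before clamping and of 193 in controls (log2 fold change 2.60, SE 1.27, unadjusted p = 0.0589, adjusted p = 0.979 in edgeR). It lay above both baseline livers in 10 of 11 livers at 6 h, and at 329 to 523 in the 4 libraries that stand apart against 21.5 to 229 in the other 7. NAMPT, the rate-limiting enzyme of NAD salvage, differed by 0.16 (SE 0.68) and ALAS1, which starts heme synthesis, by -0.33 (SE 0.52). After infusion all 7 had fitted values above 0 against controls, from 0.05 for POR to 0.97 for WEE1, with a median of 0.12 beside -0.02 over all genes. For 0 of the 7 did the infused livers lie wholly above or below the controls, as they did for 0.564% of all genes tested. WEE1 was at 60.9, 63.0 and 482 in controls 1 to 3 and at 68.7 to 1006 in infused livers, so that its value has low precision.

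Relatives of NOCT and other enzymes of NADP did not share its direction as a list. Against baseline, 3 of the 9 were higher in controls and 6 lower, with a median of -0.45. The deadenylase CNOT6L was at 0.42 (SE 0.40), while CNOT6 (-0.30), the mitochondrial phosphodiesterase PDE12 (-0.49), ANGEL1 (-0.56) and ANGEL2 (-0.45) were on the lower side. The NAD kinase NADK, which makes the NADP that Nocturnin can break down, went from a mean of 3096 to 5415 (log2 fold change 0.80, SE 0.53), and the mitochondrial kinase NADK2 from 791 to 425 (-0.90, SE 0.56). For 7 of the 9 genes all controls lay to one side of both baseline livers, higher for NADK and HDDC3 and lower for NADK2, NNT, PDE12, ANGEL1 and ANGEL2, beside 14.8% and 16.3% of all genes tested. NNT, the mitochondrial transhydrogenase that makes NADPH, went from 1722 to 590 (-1.51, SE 0.90) and lay below both baseline livers in 11 of 11 livers at 6 h, as did 3.97% of all genes tested. It was at 68.0 to 334 in the 4 libraries that stand apart and at 661 to 1296 in the other 7 at 6 h. HDDC3, a hydrolase that can act on NADPH, was at 0.75 (SE 0.70). None of the 9 passed the adjusted threshold, the smallest adjusted p being 0.979 in edgeR's test. After infusion 8 of the 9 had fitted values above 0 against controls, where NOCT was below, with a median of 0.16, and NADK was the exception at -0.44 (SE 0.38).

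Glucocorticoids, immediate early signals and temperature can move PER1 and other clock genes without the clock. Values of genes that respond to these signals stand beside those of NOCT and PER1 here without a test of that relation. All 9 immediate early genes matched had fitted values above 0 in controls against baseline, with a median of 1.28, and 4 of the 9 had control libraries wholly above baseline (14.8% of all genes did). NR4A1 was at 2.51 (SE 0.70), SIK1 at 2.24 (SE 0.68) and FOSB at 2.61 (SE 1.76). After infusion 8 of the 9 were below 0 against controls, with a median of -0.87, and JUNB was at -1.21 (SE 0.36, unadjusted p = 0.00441, adjusted p = 1.00 in edgeR). Of 6 glucocorticoid-responsive genes, 4 were higher in controls than at baseline (median 0.34), DUSP1 at 2.58 (SE 0.93) and SGK1 at -1.33 (SE 0.71) being the extremes. DUSP1 was at 1766 and 1789 in the baseline livers and at 4423, 24585 and 3938 in controls 1 to 3, so that control 2, which stands apart, was far above the others, and it was at 7528 to 24585 in the 4 libraries that stand apart against 1168 to 7810 in the other 7 at 6 h. After infusion 4 of the 6 were lower, with a median of -0.42, and TAT, a liver enzyme induced by glucocorticoids, was at -1.42 (SE 0.45, unadjusted p = 0.00639, adjusted p = 1.00 in edgeR). Of 5 temperature-responsive genes, the cold-inducible CIRBP (-1.21, SE 0.60) and RBM3 (-1.43, SE 1.05) had fitted values below 0 in controls against baseline, and the heat shock genes HSPH1 (2.16, SE 1.19), DNAJB1 (2.06, SE 0.97) and HSPA8 (0.51, SE 0.93) above 0. HSPH1 was at 830 and 1194 in the baseline livers and at 2078, 695 and 10705 in controls 1 to 3, so that control 3 held the highest value and control 2 lay below both baseline livers. It was at 695 to 2010 in the 4 libraries that stand apart and at 2078 to 14792 in the other 7 at 6 h. After infusion the median of the 5 was 0.04.

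**Figure D4:**
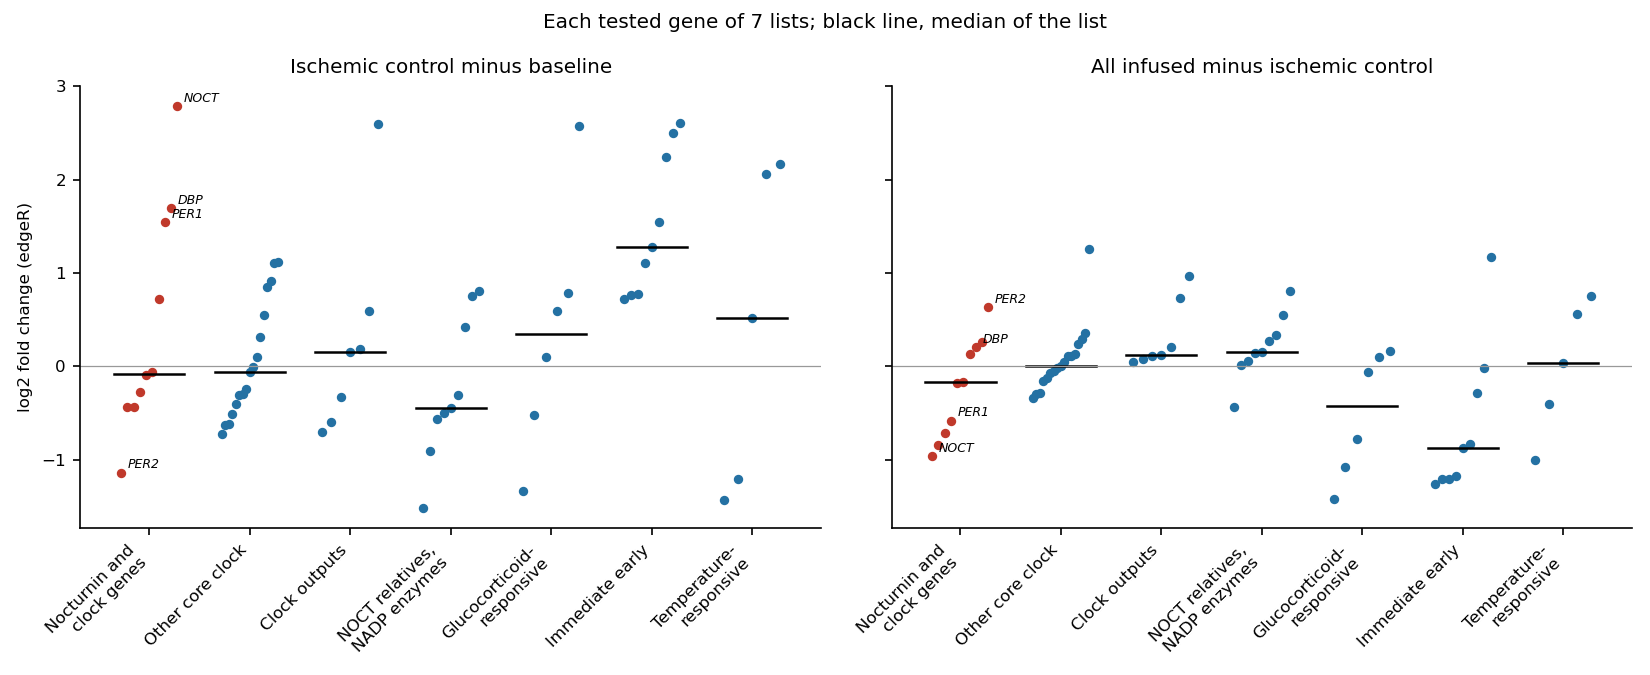
Fitted log2 fold change (edgeR) of each tested gene of 7 lists, with the list median as a black line, for ischemic controls minus baseline (left) and all infused livers minus ischemic controls (right). On the left NOCT stands at 2.79 while its list and the other core clock genes have medians of -0.08 and -0.06 and the immediate early genes one of 1.28, and on the right the median of the immediate early genes is -0.87.

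Genes with the pattern most like NOCT were taken from 12856 tested genes with a symbol, by Spearman's rho of log2 CPM over the 13 libraries, which share depth and composition between genes. Among the 5 closest were GNG5 (rho 0.896), APOA2 (0.852), CAMK2N1 (0.830) and ZNHIT6 (0.786). Over the 11 livers at 6 h alone, the rho of these 4 with NOCT was 0.836, 0.755, 0.727 and 0.745. None of these is a clock gene of the lists above. The same measure for DBP gave TLE2 (0.978), NUDT18 (0.967), DEPDC5 (0.945), SLC25A45 (0.940) and RNF135 (0.934). These values describe 13 libraries, the 4 that stand apart among them, and no p is given. The rankings moved with the measure. Of the 5 closest to NOCT, only GNG5 was also among the 5 closest over the 11 livers at 6 h, and only GNG5 and CAMK2N1 by Pearson's r over the 13 libraries. For DBP these were TLE2 and RNF135 over the 11 livers, and NUDT18, DEPDC5 and RNF135 by Pearson's r.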

How the data were processed

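Paired-end reads of poly-A selected, non-directional libraries were filtered by the authors for adapter sequence, uncertain bases and low quality, mapped to Sscrofa11.1 with HISAT2 and counted per Ensembl gene with FeatureCounts. The authors deposited raw counts per gene, whole numbers without normalization, and tool versions are not given in the sources used here. The labels of the samples gave each library's group and replicate number, and 0 columns of the table were left without a sample. For RNA extraction the labels and the study's methods name different kits.

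Counts were tested in R 4.3.3 by the quasi-likelihood test of edgeR 4.0.16, after filterByExpr and TMM normalization, with the 4 groups and 13 libraries in 1 fit, Benjamini-Hochberg adjustment over 16481 genes and a threshold of 0.05. Normalized counts are counts divided by size factors of DESeq2 1.42.0, which also gave the alternative tests and the variance stabilized values of the principal component over 500 genes. Exact permutation tests used log2(normalized count + 1). The surrogate variable came from sva 3.50.0. The test was tried on simulated counts first. Replicates of a group differed by far more than sampling noise, with a chi-square per gene of at least 83.6.

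Coordinates are gene spans of RefSeq on Sscrofa11.1, the build the authors used, matched by symbol. The 10 genes, the other lists and the tests were chosen with earlier results of these data known. The text may name any gene of the lists and the 5 genes most like NOCT or DBP by Spearman's rho. A symbol with several rows was taken at its most counted row. PER3, FBXL21, TSC22D3 and CREM of the clock and comparison lists, and CD5L, S100A9, CXCR2 and STAB2 of the marker lists, had no row under that symbol. Values of a few genes of the lists are not reported here. Alternatives were other normalizations, filters and tests, 1 surrogate variable, a block for the replicate number, the 4 libraries that stand apart left out, and each library left out in turn.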

Additional observations from a re-analysis of the deposited data

Results flagged for a closer look

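Among the 10 genes and the 17 further core clock genes, 54 sets of 4 infused livers were examined for a library far from the rest of its group, by Dixon's test at its 95% critical value. For independent, normally distributed values chance would flag about 1 in 20 such sets. Here the values were normalized counts without a log scale, and the sets share the same livers, so that this rate need not hold. Flags fell on 6 sets, each for a high value, and no excess is read from this. DBP was at 120.5 normalized counts in arterial 1, where the other arterial livers were at 16.2 to 32.5. CSNK1D was at 6319 in the same library, against 1622 to 2300 in the other 3, and this library is among those that stand apart on the first principal component. BMAL2 was at 65.0 in arterial 4, where the other arterial livers were at 0, and at 99.4 in portal 1, where the other portal livers were at 0 to 14.9. NPAS2 was at 435.6 in arterial 3, against 162 to 203 in the other arterial livers. BHLHE41 was at 85.9 in arterial 4, against 31.2 to 38.1.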

How the results depend on the processing

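The log2 fold change of NOCT kept its sign in the 6 comparisons under the alternatives run, and 0 genes passed the threshold whichever single library was left out. Without the filter on low counts, edgeR called 30 genes between controls and baseline, 28 between all livers at 6 h and baseline, 19 for all infused livers, 11 for arterial and 14 for portal infusion, and 5 between the routes. DESeq2 over all libraries called 5, 14, 1, 0, 4 and 1, and over the groups compared 166 between controls and baseline and 3 for portal infusion. Without the 4 libraries that stand apart, 1 gene was called for all infused livers and 1 for arterial infusion. The median of all genes between controls and baseline moved to 0.15 with 1 surrogate variable, 0.14 with the block and 0.11 with DESeq2 on these groups.

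Of the 10 genes, those named here changed sign in a comparison among livers at 6 h, and the cause was not tested. With 1 surrogate variable, PER2 was at -0.19 for all infused and -0.39 for portal livers, DBP at -0.24 and -0.33, CRY2 at -0.0484 for arterial and BHLHE40 at 0.16 for portal livers, and PER1 at 0.34 and DBP at 0.20 between the routes. Without the 4 libraries, NR1D1 was at 0.47, 0.49 and 0.46 for all infused, arterial and portal livers, DBP at -1.44 for all infused and -1.95 for portal livers, CRY2 at -0.0520 for arterial, CRY1 at 0.73 and BHLHE40 at 0.0896 for portal livers, and PER1 at 0.99, NR1D2 at -0.0442 and DBP at 1.02 between the routes. In portal livers BHLHE40 was at 0.0503 with at least 10 counts in every library, 0.0297 with DESeq2 over all libraries, 0.0228 with DESeq2 and 0.000874 with edgeR over the groups compared, 0.0297 with RLE and 0.0481 with upper quartile normalization, where CRY1 was at 0.00538. Signs against baseline also turned with 1 surrogate variable. PER2 was then at 0.47 in controls and 0.34 over all livers at 6 h, NR1D1 at 1.61 and 0.18, and CRY2 at 0.22 and 0.30. In controls CRY1 was at 0.20 and CLOCK at 0.25.

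Leaving out single libraries gave these ranges where a sign turned. For controls against baseline CRY1 ran from -0.32 to 0.0969, CRY2 from -0.54 to 0.19, CLOCK from -1.29 to 0.22 and NR1D1 from -1.18 to 1.06, and over all livers at 6 h CRY2 ran from -0.25 to 0.24 and NR1D1 from -1.74 to 0.50. For all infused livers CRY2 ran from -0.15 to 0.58, CLOCK from -1.21 to 0.30, NR1D2 from -0.42 to 0.0528, DBP from -0.37 to 0.81 and BHLHE40 from -0.44 to 0.41. For arterial livers CRY2 ran from -0.24 to 0.49, CLOCK from -0.91 to 0.60, NR1D1 from -0.82 to 0.15, NR1D2 from -0.35 to 0.14, DBP from -1.04 to 0.54 and BHLHE40 from -0.59 to 0.26. For portal livers PER1 ran from -0.79 to 0.0792, PER2 from -0.67 to 0.74, CRY1 from -0.28 to 0.24, CRY2 from -0.0565 to 0.66, CLOCK from -1.51 to 0.0076, DBP from -0.67 to 1.08 and BHLHE40 from -0.41 to 0.57. Between the routes PER1 ran from -0.54 to 0.0651, PER2 from -0.32 to 1.59, DBP from -1.53 to 0.61 and BHLHE40 from -0.56 to 0.0923.

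Livers of different groups share replicate numbers. Control, arterial and portal livers came from different animals, so that only a baseline liver could be paired with a later one. Baseline 1a shares its label with no other library, and the deviations of 2 baseline livers mirror each other. The correlations below therefore cannot decide whether baseline livers were paired with later ones. Deviations from group means correlated at -0.42 to 0.43 (median -0.08) in 13 pairs with the same number, of which 4 exceeded 0.1, and at -0.53 to 0.44 in 49 pairs with different numbers. With the replicate number as a block 0 genes were called in each comparison. Baseline 1a formed a block of its own there, so that comparisons with baseline rested on baseline 2. NOCT was then at 2.88 in controls against baseline and -1.43 in portal livers against controls, and the block turned DBP to -1.13 for all infused and -1.15 for portal livers and 0.0439 between the routes, and PER2 to -0.32, CRY1 to 0.11 and BHLHE40 to 0.0647 in portal livers.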
